A study of Mus musculus with 4 samples.

Results

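The genes described here encode the enzymes that make serine, asparagine and mitochondrial phosphoenolpyruvate (PEP) and that pass carbon units through folate. They are Phgdh, Psat1, Psph, Asns, Pck2, Shmt1, Shmt2, Mthfd1, Mthfd2 and Aldh1l2, 10 of the 22180 genes that had a probe set with a single gene symbol. They were chosen by name, with earlier results of these data known. Shares of the members set beside shares of all genes may therefore partly reflect that choice, which was not tested. Each of the 10 had 1 such probe set, and all 10 passed the filter on dim genes that 13314 genes passed.

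Expression was measured in embryoid bodies, the aggregates in which embryonic stem cells start to differentiate, grown from the mouse embryonic stem cell line R1. Feeder-depleted R1 cells were kept for 18 h without LIF, the cytokine that holds them undifferentiated, in 1 of 4 conditions: 1.88 µM GSK-J4, 1.88 µM GSK-J5, DMSO, or EB medium alone. GSK-J4 is a cell-permeable ester prodrug of an inhibitor of the KDM6 histone demethylases, and GSK-J5 is the corresponding ester of its pyridine regioisomer, which has little activity on these enzymes. Each condition had 1 Affymetrix array, so no value below has a replicate and no p-value is given. The only measure of variation is the spread among the GSK-J5, DMSO and EB medium arrays. These arrays differ in treatment, so their spread mixes any effect of treatment with variation between arrays. The array files give log2 expression after RMA (robust multi-array averaging), with array medians of 6.63 to 6.65. Base 2 was inferred from their range of 2.20 to 14.48, and the folds rest on it. Of 10 markers of embryonic stem cells 9 passed the filter and Dppa5a did not, and the mean level over all 10 was 11.07 in GSK-J4, 11.12 in GSK-J5, 11.12 in DMSO and 11.12 in EB medium. In GSK-J4, 6 of the 10 read below all 3 controls and 2 above, against 35.5% and 38.0% of all genes that passed the filter. Klf4, 1 of the 2 above and the farthest from GSK-J5, read 9.26 in GSK-J4, against 8.88 in GSK-J5. Of 16 markers of the feeder fibroblasts that had been depleted, 11 passed the filter. In GSK-J4, 9 of the 16 read below all 3 controls (35.5% of all genes did) and 1 above (38.0%). Dcn, which did not pass the filter, lay farthest from GSK-J5 with 4.78 in GSK-J4 and 5.29 in GSK-J5. The mean level of the list was 7.17 in GSK-J4 and 7.29 to 7.37 in controls. The part of feeder fibroblasts in the results below was not tested. RMA gives no value of 0, so absence of a transcript could not be read from these arrays. In whole embryoid bodies, a change in the mix of cells and a change of RNA in each cell cannot be told apart.

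Serine is made from the glycolytic intermediate 3-phosphoglycerate by PHGDH, PSAT1 and PSPH in succession. Serine hydroxymethyltransferases then move a carbon from serine to tetrahydrofolate, SHMT2 in mitochondria and SHMT1 in the cytosol. Carbon held on folate serves purine and thymidylate synthesis, and the MTHFD enzymes oxidise it or release it as formate. The ALDH1L enzymes instead oxidise it to carbon dioxide. When amino acids are short or the eIF2 kinases are active, the transcription factor ATF4 is translated and binds C/EBP-ATF response elements, and several of these enzymes, ASNS among them, are known targets. Mouse embryonic stem cells divide quickly and use threonine, glycine and serine as carbon donors.

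The promoter of Asns is the textbook case of this control: in the human gene, a pair of short nutrient-sensing elements just upstream of the start is needed for its response to amino acid shortage. The 300 bases from 250 before to 50 after an annotated start were taken from RefSeq (GRCm38.p6) for the 9 members listed there, in 10 windows. Aldh1l2 was not searched. The letters TGATGNAA, the core of the C/EBP-ATF element, GTTACA, the second human ASNS element, and CACGTG, an E-box, were searched on both strands. Asns and Pck2 held the first 2 of these, the other 7 members held none of the 3, and none of the 9 held CACGTG. Over all 32851 RefSeq windows of this length, TGATGNAA occurred in 3.97%, GTTACA in 8.25%, both in 0.694% and CACGTG in 7.15%. The windows of Asns (chr6:7693160-7693459, minus strand) and Pck2 (chr14:55540016-55540315, plus strand) are shown because they hold the matches, which are in capitals, and that of Psph (chr5:129787204-129787503, minus strand) because its transcript stood far from the controls and its window holds no match. All are written 5′ to 3′ on the strand of the gene.
Asns: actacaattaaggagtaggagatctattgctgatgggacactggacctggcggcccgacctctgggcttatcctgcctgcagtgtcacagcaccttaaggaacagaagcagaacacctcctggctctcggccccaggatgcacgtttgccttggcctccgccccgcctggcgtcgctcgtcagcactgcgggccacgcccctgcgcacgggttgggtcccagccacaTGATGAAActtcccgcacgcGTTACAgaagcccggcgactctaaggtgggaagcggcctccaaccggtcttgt
Pck2: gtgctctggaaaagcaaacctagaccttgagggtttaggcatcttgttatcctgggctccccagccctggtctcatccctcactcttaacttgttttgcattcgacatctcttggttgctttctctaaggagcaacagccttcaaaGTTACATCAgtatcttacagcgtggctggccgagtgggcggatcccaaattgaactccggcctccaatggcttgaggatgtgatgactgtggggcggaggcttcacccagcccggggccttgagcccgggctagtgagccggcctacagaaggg
Psph: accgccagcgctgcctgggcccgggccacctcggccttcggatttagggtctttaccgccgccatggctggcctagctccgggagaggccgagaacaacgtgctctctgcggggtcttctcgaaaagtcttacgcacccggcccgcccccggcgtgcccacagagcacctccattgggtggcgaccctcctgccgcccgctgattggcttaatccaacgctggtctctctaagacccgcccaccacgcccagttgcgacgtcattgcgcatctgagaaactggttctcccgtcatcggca
In Asns, TGATGAAA runs from base -23 to -16 relative to the annotated start. GTTACA follows after 12 bases, from base -3 to 3, and so spans that start. In Pck2 the C/EBP-ATF letters lie on the opposite strand as TGATGTAA, from base -103 to -96, and share 5 bases with GTTACA, so these are not separate matches. A match of letters is not a shown binding site, and no binding was measured.

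In GSK-J4, 8 of the 10 transcripts read above all 3 controls, against 38.0% of all 13314 genes that passed the filter, and 1 read below them, against 35.5%. By a rule of size, under which a gene counts as higher when GSK-J4 exceeds the highest control 1.5-fold or more (0.585 in log2 units), and as lower in the mirror case, 3 of the 10 were higher, namely Aldh1l2, Pck2 and Psph, and 0 were lower. The same rule counted 2.21% of all genes as higher and 0.841% as lower. The distance from GSK-J4 to the nearest control, called the margin, ranged in the members from -0.25 (Shmt1) to 1.59 (Aldh1l2). Their median log2 difference was 0.405 for GSK-J4 minus GSK-J5, 0.515 for GSK-J4 minus DMSO and 0.535 for GSK-J4 minus EB medium, beside 0.00, 0.01 and 0.00 for all genes. These 3 differences share the GSK-J4 array.

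**Figure D1:**
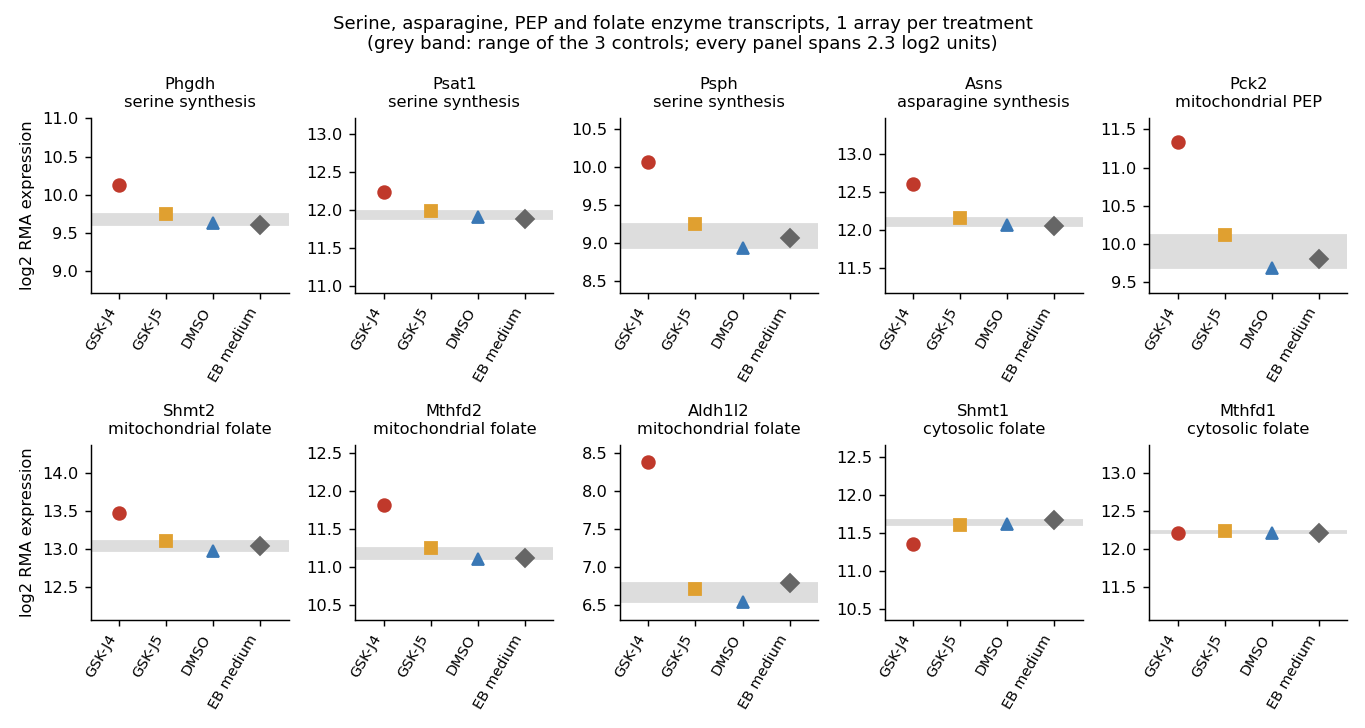
Log2 RMA expression of each member (vertical axis) on the GSK-J4, GSK-J5, DMSO and EB medium arrays (horizontal axis), 1 array per point; the grey band is the range of the 3 controls and every panel spans the same height. GSK-J4 lies above the band in 8 panels, below it for Shmt1 and within it for Mthfd1.

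Transcripts for all 3 steps of serine synthesis read above every control in GSK-J4, by unequal amounts. Phgdh, the dehydrogenase that commits 3-phosphoglycerate to serine (probe set 17408273), read 10.12 in GSK-J4, against 9.75 in GSK-J5, 9.62 in DMSO and 9.60 in EB medium. Psat1, the aminotransferase of the next step (probe set 17363204), read 12.24 in GSK-J4, against 11.99, 11.91 and 11.88 in GSK-J5, DMSO and EB medium. The margins of Phgdh and Psat1, 0.37 and 0.25, were 1.29-fold and 1.19-fold and fell short of the rule of size, although each exceeded the range of its own controls (0.15 and 0.11). Psph, the phosphatase that releases free serine (probe set 17453124), read 10.06 in GSK-J4, against 9.25 in GSK-J5, 8.93 in DMSO and 9.07 in EB medium. Its margin of 0.81 (1.75-fold) was the 136th highest of 13314, and exceeded the 0.32 that its controls spanned. The last step of the pathway stood farther from the controls than the first steps did.

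Asns, which amidates aspartate to asparagine with glutamine as nitrogen donor (probe set 17464718), read 12.60 in GSK-J4, against 12.16 in GSK-J5, 12.07 in DMSO and 12.05 in EB medium. The margin of 0.44 was 1.36-fold, under the rule of size, and 4.30% of all genes had a margin at least as high. Its controls lay within 0.11 of one another. Pck2, which makes PEP from oxaloacetate inside mitochondria (probe set 17300504), read 11.33 in GSK-J4, against 10.12 in GSK-J5, 9.68 in DMSO and 9.80 in EB medium. GSK-J4 was 2.31-fold above GSK-J5, the nearest control, and 3.14-fold above DMSO. Only 0.24% of genes had a margin at least as high as that of Pck2 (1.21). Pck1, the cytosolic PEP carboxykinase of gluconeogenesis, read 6.49 in GSK-J4, against 6.75, 6.56 and 6.57 in GSK-J5, DMSO and EB medium, at or below the filter level of 6.585 on all but 1 array. The 2 promoters that share the searched letters belonged to transcripts with unlike margins, 0.44 for Asns and 1.21 for Pck2.

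**Figure D2:**
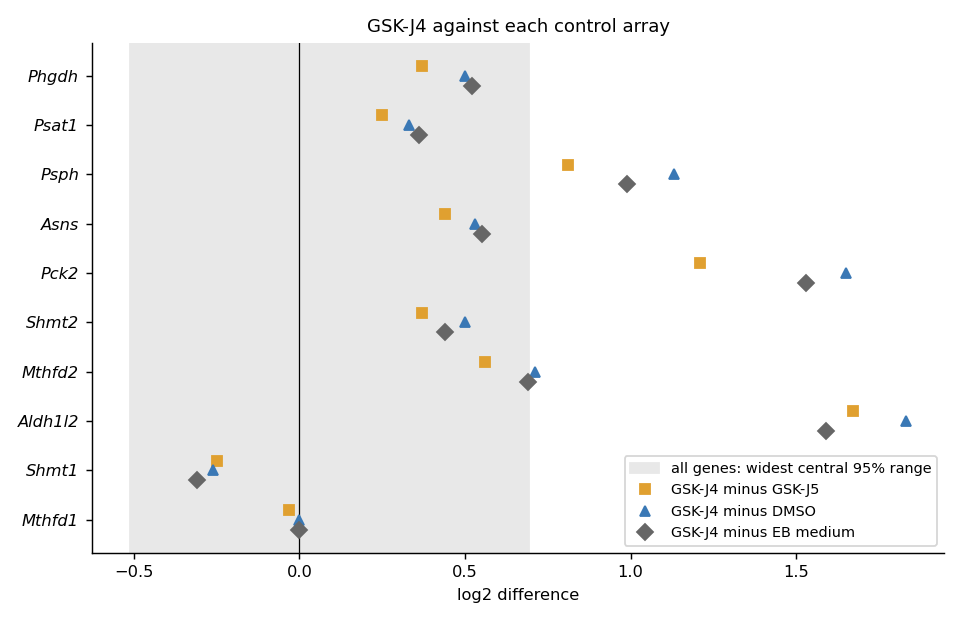
Log2 difference between the GSK-J4 array and each control array (horizontal axis) for the 10 members (vertical axis); the grey band is the widest of the central 95% ranges of these differences over the 13314 genes, from -0.51 to 0.69. Aldh1l2, Pck2 and Psph lie to the right of the band against every control, and Mthfd2 lies to its right against DMSO (0.71).

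The mitochondrial folate enzymes among the members read above every control in GSK-J4, by amounts that differed between them. Aldh1l2, the mitochondrial 10-formyltetrahydrofolate dehydrogenase (probe set 17243544), read 8.37 in GSK-J4, against 6.70 in GSK-J5, 6.54 in DMSO and 6.78 in EB medium. This margin of 1.59 was the 11th highest of all genes and the nearest control was EB medium, 3.01-fold lower. The DMSO value lay under the filter level and no control was shown to be above background, so the fold is not exact. Mthfd2, the mitochondrial methylenetetrahydrofolate dehydrogenase and cyclohydrolase (probe set 17468143), read 11.82 in GSK-J4, against 11.26, 11.11 and 11.13 in GSK-J5, DMSO and EB medium. Its margin of 0.56 (1.47-fold) was just under the rule of size and was 0.69, past the rule, when the GSK-J5 array was left out. Shmt2, which transfers the carbon of serine to folate in mitochondria (probe set 17245902), read 13.47 in GSK-J4, against 13.10, 12.97 and 13.03. Its margin was 0.37 (1.29-fold).

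The cytosolic counterparts did not share these differences. Shmt1 (probe set 17263673) read 11.36 in GSK-J4, against 11.61 in GSK-J5, 11.62 in DMSO and 11.67 in EB medium, so it was the only member below all 3 controls. Its margin of -0.25 was small in fold, but the controls differed by 0.06 at most. Mthfd1, the cytosolic enzyme that carries the synthetase, cyclohydrolase and dehydrogenase activities on a single polypeptide (probe set 17276520), read 12.21 in GSK-J4, against 12.24, 12.21 and 12.21. At the precision of the files, which is 2 decimals, Mthfd1 in GSK-J4 equalled DMSO and EB medium. Its GSK-J4 minus GSK-J5 difference was -0.03.

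Set against its paralogue, each mitochondrial member had the larger log2 difference. For GSK-J4 minus GSK-J5 the difference of Shmt2 exceeded that of Shmt1 by 0.62, and for DMSO and EB medium as reference by 0.76 and 0.75. Mthfd2 exceeded Mthfd1 by 0.59, 0.71 and 0.69 against GSK-J5, DMSO and EB medium. Aldh1l1, the cytosolic paralogue of Aldh1l2, read 7.59 in GSK-J4, against 7.74, 7.62 and 7.70, so that the gap between Aldh1l2 and Aldh1l1 was 1.82, 1.86 and 1.70. The mean difference over Shmt2, Mthfd2 and Aldh1l2 was 0.87 and over Shmt1 and Mthfd1 -0.14 (GSK-J4 minus GSK-J5), a gap of 1.01. This mitochondrial mean leaves out Mthfd1l (0.28) and Mthfd2l (-0.55), which are described below. Aldh1l2, whose fold is not exact, has the largest difference of the 3 averaged, and without it the gap was 0.605. With Aldh1l2 included, the gap was 0.14 for GSK-J5 minus DMSO and -0.08 for DMSO minus EB medium. These are unequal changes of different transcripts on the log2 scale, and levels of different probe sets were not compared.

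Of 2 further mitochondrial enzymes, Mthfd1l read above all controls and Mthfd2l below them. Mthfd1l, the mitochondrial formyltetrahydrofolate synthetase, read 11.10 in GSK-J4, against 10.82 in GSK-J5, 10.74 in DMSO and 10.80 in EB medium, a margin of 0.28. Mthfd2l, a paralogue of Mthfd2 with the same mitochondrial reactions, read 8.44 in GSK-J4, against 8.99, 9.29 and 9.23, a margin of -0.55 in the direction opposite to Mthfd2. The difference of Mthfd2 exceeded that of Mthfd2l by 1.11 against GSK-J5 and by 1.56 against DMSO. In GSK-J5 as well, Mthfd2l was lower than in DMSO, by -0.30 on the log2 scale, while Mthfd2 was higher by 0.15.

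**Figure D3:**
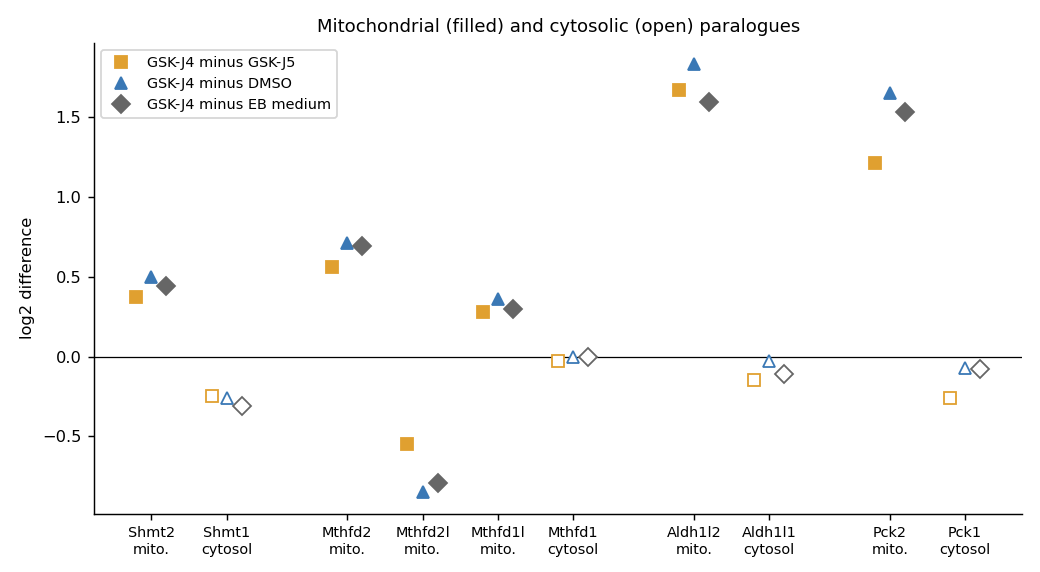
Log2 difference between GSK-J4 and each control array (vertical axis) for mitochondrial enzymes (filled symbols) and their cytosolic paralogues (open symbols), grouped by family along the horizontal axis. Shmt2, Mthfd2, Mthfd1l, Aldh1l2 and Pck2 lie above 0 against all 3 controls, Mthfd2l lies below, and the cytosolic enzymes lie between -0.31 and 0.00.

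GSK-J4 and GSK-J5, which differ in the position of the pyridine nitrogen, were applied at the same dose and time and form the 1 matched pair of compounds. With GSK-J5 as the only reference 3 of 10 members were at least 1.5-fold higher in GSK-J4 (3.28% of all genes), and 4 of 10 were so with DMSO (3.89%) and with EB medium (2.96%), Mthfd2 being the additional one. With 1 array each, no interval can be put on the difference between the compounds. The reference matters because GSK-J5 was itself the highest control for 8 of the 10 members, against 29.7% of all genes. GSK-J4 above GSK-J5, and GSK-J5 above both other controls, was the order for 7 of 10 members (11.6% of all genes): Phgdh, Psat1, Psph, Shmt2, Mthfd2, Asns and Pck2.

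Pck2 differed most between GSK-J5 and DMSO, by 0.44 (1.36-fold), a difference that 0.323% of all genes matched or exceeded. Psph followed with 0.32, which 1.49% of genes matched or exceeded. The other members had GSK-J5 minus DMSO differences of -0.01 (Shmt1) to 0.16 (Aldh1l2), within the central 95% range of all genes, -0.26 to 0.27. Aldh1l2 did not follow the order, since EB medium (6.78) was its highest control. The median over the members was 0.13 for GSK-J5 minus DMSO and 0.11 for GSK-J5 minus EB medium, beside 0.01 and -0.01 over all genes, and 0 of 10 reached 1.5-fold in either (0.0526% of all genes were that much higher and 0.12% lower than in DMSO, 0.0901% and 0.0976% than in EB medium). For DMSO minus EB medium the members' median was -0.035.

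**Figure D4:**
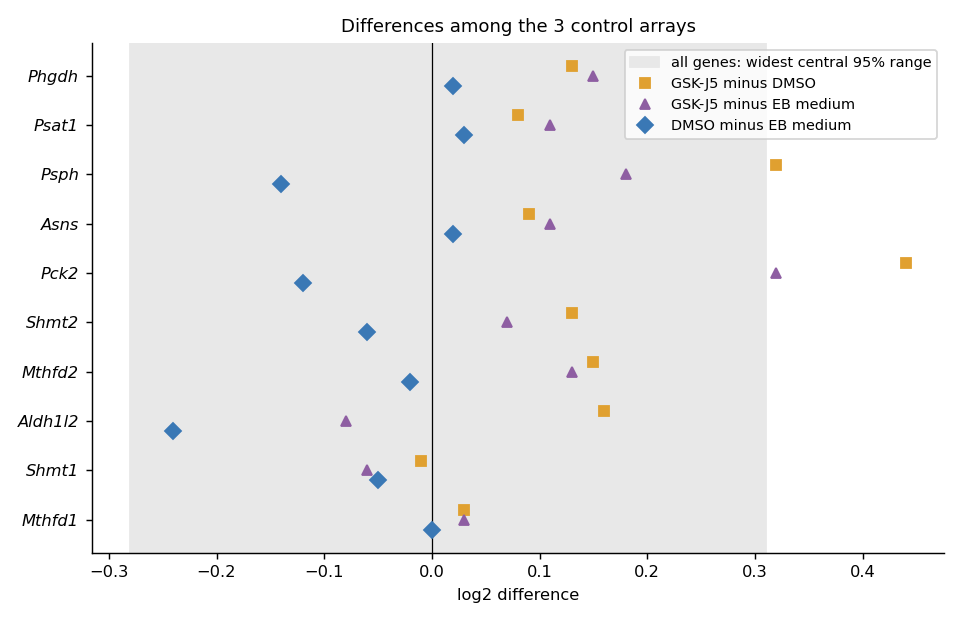
Log2 differences among the 3 control arrays (horizontal axis) for the 10 members (vertical axis); the grey band is the widest of the central 95% ranges of these differences over the 13314 genes, from -0.28 to 0.31. GSK-J5 minus DMSO lies above 0 for 9 members (52.1% of all genes), and Pck2 (0.44) and Psph (0.32) lie outside the band.

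The rest of the pathway differed less from the controls. Of 26 further folate and one-carbon genes 23 had a value and 18 passed the filter. None of the 18 was counted in either direction (2.21% of all genes higher, 0.841% lower). Of the 23, 8 read above all controls (38.0% of all genes) and 10 below (35.5%), and the list had a median of -0.04 for GSK-J4 minus GSK-J5. Mthfd2l was the farthest from GSK-J5. Tyms, thymidylate synthase, which consumes a folate carbon, read 10.78 in GSK-J4, against 10.75, 10.77 and 10.75 in GSK-J5, DMSO and EB medium. Chosen after the values were seen, Slc25a32, the carrier that brings folate into mitochondria, had a margin of -0.16.

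Among 16 measured genes of glycine cleavage and serine use, Cth was the only one counted as higher (2.21% of all genes) and 0 were lower (0.841%). Cth, the cystathionine lyase that ends the route from serine and homocysteine to cysteine, read 11.83 in GSK-J4, against 10.95 in GSK-J5, 10.70 in DMSO and 10.77 in EB medium, a margin of 0.88 (1.84-fold). As in most of the members, GSK-J5 was its highest control. The median of the list was 0.045, with 8 of 16 above all controls (38.0% of all genes) and 3 below (35.5%). Chosen after the values were seen, Serinc3, a membrane protein of the serine incorporator family, had a margin of 0.48 and Srr, serine racemase, 0.47, while Gcsh, the lipoyl carrier protein of glycine cleavage, had a margin of -0.46 and the glycine decarboxylase gene Gldc one of -0.20.

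Purine synthesis and the making of thymidylate use folate carbon, and their genes were listed together with those of other pyrimidine synthesis and salvage. Of 15 measured, 12 read below all controls (35.5% of all genes did) and 2 above (38.0%). None was counted (2.21% of all genes higher, 0.841% lower), and the list had a median of -0.16 for GSK-J4 minus GSK-J5. Tk1, thymidine kinase, differed most, with 10.22 in GSK-J4, against 10.74, 10.70 and 10.84 in GSK-J5, DMSO and EB medium. Chosen after the values were seen, Ppat, Gart, Paics, Adsl and Atic, the 5 measured genes of the route to inosine monophosphate, all read below the 3 controls, with margins of -0.22 to -0.11. Gart and Atic, which use 10-formyltetrahydrofolate directly, had margins of -0.16 and -0.22.

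**Figure D5:**
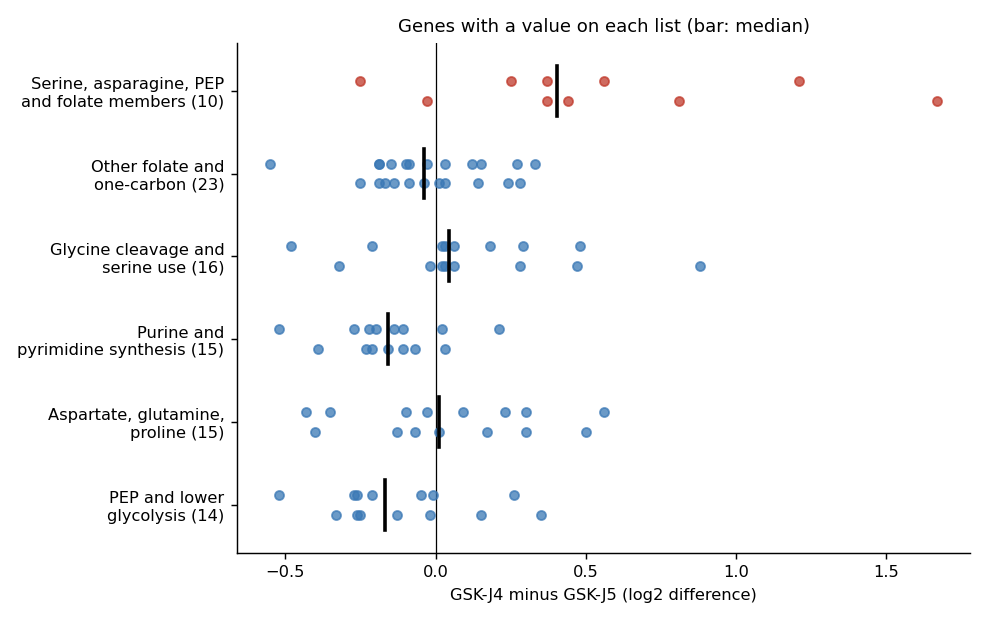
GSK-J4 minus GSK-J5 log2 difference (horizontal axis) of every gene with a value on the list of members and 5 lists of neighbouring pathways (vertical axis, number of genes in brackets); points are genes and bars are list medians. The members have a median of 0.405, and the other lists have medians of -0.17 to 0.045.

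Transcripts of ATF4, of its partners and targets, of the eIF2 kinases and of other regulators were measured on the same arrays. Of 17 with a value 7 were counted as higher (2.21% of all genes were) and Myc alone as lower (0.841%). By any amount, 11 of the 17 read above all controls (38.0% of all genes) and 5 below (35.5%). The 7 were Nupr1, Trib3, Ddit3, Atf3, Atf5, Cebpb and Cebpg, with margins of 2.50, 2.02, 1.76, 1.33, 0.97, 0.86 and 0.73, all transcriptional regulators except Trib3, a pseudokinase that restrains ATF4. Atf4 read 9.91 in GSK-J4, against 9.28 in GSK-J5, 9.35 in DMSO and 9.32 in EB medium, a margin of 0.56, under the rule of size. Ddit3, which encodes the ATF4 partner CHOP, read 9.96 in GSK-J4, against 8.20 in GSK-J5, 7.50 in DMSO and 7.88 in EB medium, the same order of arrays as for Pck2, with DMSO lowest. Cebpg, a dimer partner of ATF4 on C/EBP-ATF elements, read 9.77 in GSK-J4, against 8.92 to 9.04, and GSK-J5 was its lowest control. Myc, which is known to raise serine and folate enzyme genes, read 9.75 in GSK-J4, against 10.45, 10.49 and 10.56, a margin of -0.70. The eIF2 kinase genes Eif2ak3, Eif2ak4, Eif2ak1 and Eif2ak2, named after the values were seen, had margins of 0.08, 0.14, -0.18 and 0.08. Protein levels, ATF4 translation and enzyme activity were not measured.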

How the data were processed

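Gene expression was measured on 4 Affymetrix arrays, 1 for each of GSK-J4, GSK-J5, DMSO and EB medium, assigned by the treatment label. The authors deposited log2 values for 41345 probe sets, computed by RMA. The software was Affymetrix Expression Console, version 1.2.1.20, per the submitters' processing notes. This method brings arrays to a common distribution, which hides any overall change in RNA, and detection could not be examined. No build is given in the sources used here.

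Analysis used probe sets with a single symbol in the platform annotation (23521, giving 22180 genes) and took the brightest on average per gene. All 10 members matched a RefSeq symbol through their gene identifier. Genes were counted if their 4-array mean was at or above the 40th percentile (6.585). Differences were computed with Python 3.11.15, pandas 2.3.3 and numpy 2.4.6, and the rule of size was also run on simulated arrays. The planted changes there were larger than the rule requires, so recovering them does not show how the rule does on real arrays. No statistical test was made, because each treatment has 1 array, which limits the precision.

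Alternatives tried were dropping the filter, a 60th percentile filter, folds of 1.3 and 2, median centring, repeated quantile normalization, loess (span 0.3), the median over probe sets, leaving out each control, another reference, and the mean. From the 8 other gene lists, genes were named if counted in either direction, or else the 1 farthest from GSK-J5, together with the paralogues Aldh1l1, Mthfd1l, Mthfd2l and Pck1, the thymidylate synthase gene Tyms, and Atf4, Ddit3 and Myc. Members and lists were chosen with earlier results of these data known.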

Additional observations from a re-analysis of the deposited data

How the results depend on the processing

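No paired analysis was possible because each treatment has 1 array and no test was made. A value was taken as moved when it changed by more than 0.133, the SD of the GSK-J5 minus DMSO differences over all counted genes, and a count when it changed by more than 1.5 times. Under median centring, repeated quantile normalization and loess the members' median for GSK-J4 minus GSK-J5 was 0.405 to 0.43, the gap between mitochondrial and cytosolic folate enzymes was 0.99 to 1.01, and 3 members were counted as higher in each. At a fold of 1.3 the count was 5, Mthfd2 and Asns being added (5.66% of all genes were higher there). It was 2 at a fold of 2, which Psph missed (0.571%), and 2 with the filter at the 60th percentile, which Aldh1l2 missed (2.15%). Without the GSK-J5 array it was 4, since Mthfd2 then had a margin of 0.69, and the margins of Psph and Pck2 were 0.99 and 1.53. With DMSO as reference the gap between Shmt2 and Shmt1 was 0.76 and that between the mitochondrial and cytosolic means 1.14. That last gap, against GSK-J5, was 0.605 without Aldh1l2 and 1.01 with Aldh1l1 added to the cytosolic mean, both chosen after seeing the data. The mitochondrial enzymes Mthfd1l and Mthfd2l were not added to the mitochondrial mean in any alternative. The mean over members, in place of the median, was 0.54 for GSK-J4 minus GSK-J5 and 0.69 for GSK-J4 minus DMSO. No alternative reversed a direction, but many could not have done so. Changes of filter or fold leave the differences as they are, and leaving out a control cannot turn a margin round. The median over probe sets changes nothing for the members, which have 1 probe set each. Aldh1l2 and Pck1 are near the dim end, where signal over background was not known.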

Other observations

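Genes of aspartate, glutamine and proline metabolism, which border on asparagine synthesis, had a median GSK-J4 minus GSK-J5 difference of 0.01 over the 15 with a value. Of the 13 that passed the filter 0 were counted in either direction (2.21% of all genes higher, 0.841% lower). Of the 15, 7 read above all controls (38.0% of all genes) and 6 below (35.5%). Aldh18a1, which makes the proline precursor pyrroline-5-carboxylate from glutamate, was the farthest, with 11.85 in GSK-J4, against 11.29 in GSK-J5, 10.98 in DMSO and 11.03 in EB medium. Chosen after the values were seen, Gpt2, the mitochondrial alanine aminotransferase, read 11.88 in GSK-J4, against 11.38, 11.09 and 11.11, with the same order of GSK-J4, GSK-J5 and the other controls as 7 of the 10 serine, asparagine, PEP and folate genes. In the other direction Oat, ornithine aminotransferase, also chosen after its values were seen, read 10.06 in GSK-J4, against 10.49 to 10.54.

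Genes of PEP metabolism and lower glycolysis, from which serine and PEP carbon derive, had a median of -0.17 over 14 genes. Of these, 10 read below all controls (35.5% of all genes did) and 2 above (38.0%). Of the 13 that passed the filter 0 were counted (2.21% of all genes higher, 0.841% lower). Pdk1, a pyruvate dehydrogenase kinase, was the farthest from GSK-J5, with 10.45 in GSK-J4, against 10.97, 10.89 and 10.93. Pgk1, which makes 3-phosphoglycerate, the substrate of PHGDH, read 13.08 in GSK-J4, against 13.41, 13.33 and 13.28, and was chosen after the values were seen.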
